A study of Bos taurus with 18 samples.

Results

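The genes described here stood at least 4-fold higher in bovine satellite cells differentiated in serum-free medium on a DMEM base than in the same medium on a DMEM/F-12 base, and changed at most 3-fold between serum growth medium and serum differentiation medium. They numbered 49 of the 27607 gene identifiers in the count table. For each gene, x was the mean over a group's 3 libraries of counts scaled to a common library total (CPM, 1000000 counts), plus 0.5. Members had x of at least 5 in the DMEM group, x at least 4 times that of the SFDM group, and a ratio of DM to GM within 3-fold in either direction. The levels in DMEM, SFDM, DM and GM thus chose the members. Every count or fold change below that involves one of these 4 media is a description, and SFB against SFGM is the comparison that none of them enters. The file gives Ensembl identifiers without gene names and the reference table held none of these identifiers, so 4 members are named by identifier and the others are described by their behaviour.

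Satellite cells are the resident progenitors of skeletal muscle, which proliferate as myoblasts and then leave the cell cycle and fuse into multinucleated myotubes. In culture the switch is usually triggered by lowering serum, which removes mitogens. DMEM is a basal nutrient medium, and DMEM/F-12 blends it with Ham's F-12, which brings components that DMEM lacks, among them zinc and copper salts, linoleic acid and further amino acids. The labels do not give the composition of the media used here beyond their base, nor the base of SFB.

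All 18 libraries came from Belgian Blue satellite cells, with 3 replicates in each of 6 media. At 0 h the cells were proliferating in growth medium with 20% fetal bovine serum (GM) or in a serum-free growth medium (SFGM). At 72 h, cells from GM had been moved to differentiation medium with 2% serum (DM), and cells from SFGM to a serum-free base medium (SFB), to serum-free differentiation medium on DMEM/F-12 (SFDM) or to that medium on DMEM (DMEM). Libraries held 16162525 to 28589018 counts, with the lowest total in SFDM replicate A. Whether the cells carried satellite cell markers was not tested, because no marker could be matched to an identifier. Without counts of cells, a lower RNA level per cell and fewer cells expressing a gene cannot be told apart.

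The choice on DMEM and SFDM alone took 83 genes, and the bound on DM over GM removed 34 of them, 32 with a ratio above 3 and 2 with a ratio below the lower bound. Just inside the 4-fold limit lay members with ratios of DMEM to SFDM of 4.003, 4.04 and 4.08, and just outside lay genes at 3.88, 3.87 and 3.87. The lowest x in DMEM among members was 5.35, and the nearest gene below the limit of 5 had 4.93. The ratio of DM to GM reached 3.00 inside the bound, next to a gene at 3.01 outside, and went down to 0.334, next to one at 0.258. Values on either side lay close together at the fold limit and the upper bound, and farther apart at the lower bound. A limit of 3-fold on DMEM over SFDM would take 114 genes, and one of 6-fold would take 16.

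Together the 49 members made up 0.584% to 0.633% of the counts in the DMEM libraries and 0.116% to 0.123% in the SFDM libraries, which the choice of members favours. In the media that did not set this contrast the share was 0.291% to 0.293% in SFGM, 0.197% to 0.232% in SFB, 0.388% to 0.401% in DM and 0.241% to 0.250% in GM. The summed level thus followed the order DMEM, DM, SFGM, GM, SFB, SFDM, and the libraries of neighbouring groups did not overlap at any step. SFB replicate C lay above SFB replicates A and B, at 2325 CPM summed over the members against 1969 and 1983. The sum is carried by the abundant members. The median of the members' group means followed another order, with 36.3 CPM in DMEM, 16.2 in GM, 16.1 in SFGM, 13.3 in DM, 9.30 in SFB and 4.19 in SFDM. The per-library medians of GM (15.7 to 17.8 CPM) and SFGM (13.4 to 15.6 CPM) did not overlap, and those of SFGM and DM (12.5 to 14.6 CPM) did.

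**Figure D1:**
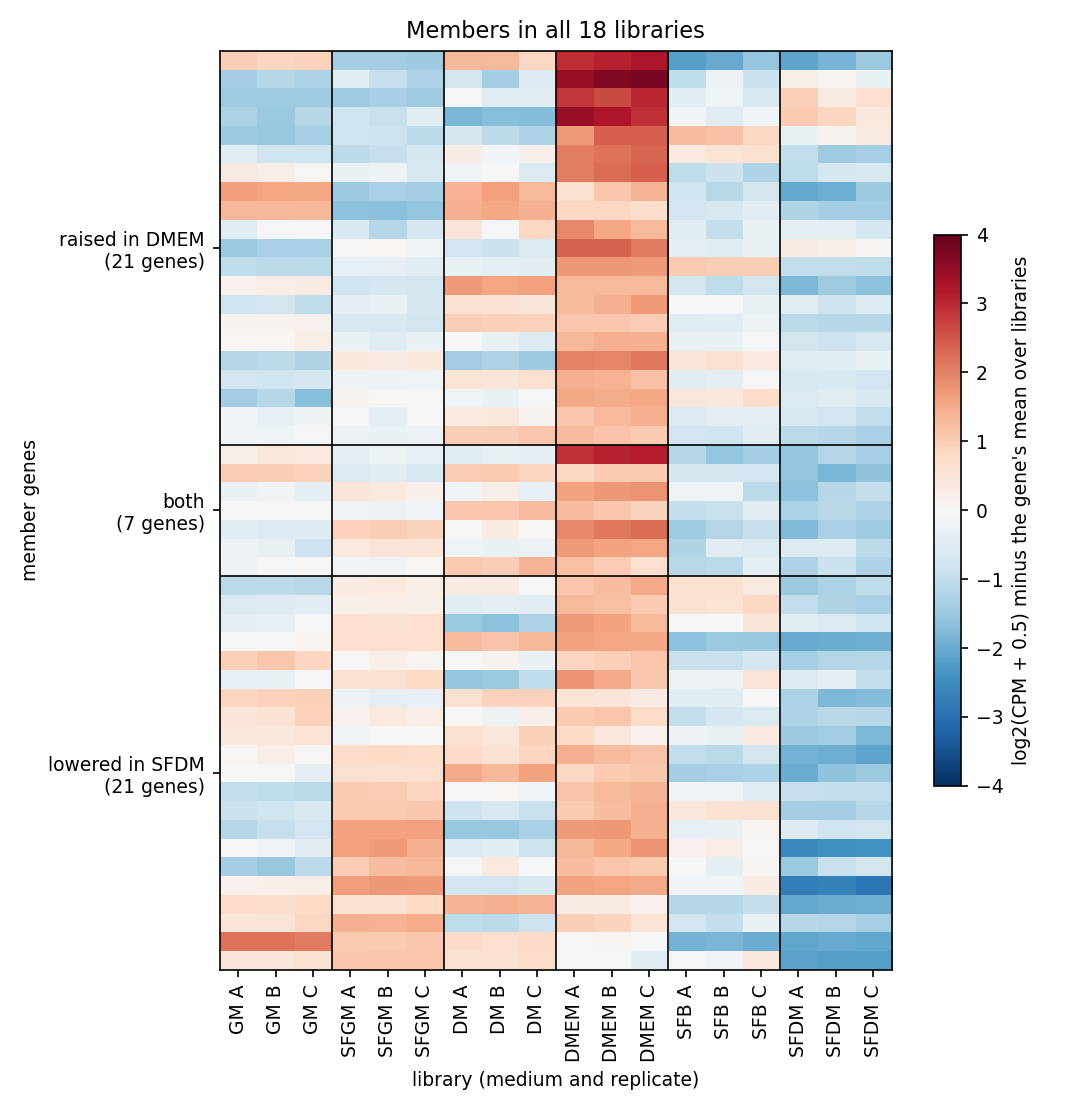
Level of each of the 49 members (rows) in the 18 libraries (columns, grouped by medium), as log2(CPM + 0.5) minus the gene's mean over all libraries; red is above that mean and blue below. Rows are grouped by how DMEM and SFDM compare with SFGM. The DMEM columns are the reddest and the SFDM columns mostly blue, which the choice of genes favours, while GM, SFGM and DM differ from row to row.

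The members spanned a wide range of abundance. In DMEM 13 had a mean of at least 100 CPM and 9 a mean below 10 CPM, and the means ran from 4.85 to 1615 CPM. The most abundant member stood at 1615 CPM in DMEM and 400 CPM in SFDM, with 937 in DM, 559 in SFGM, 529 in SFB and 380 in GM. Among members with a group mean of at least 5 CPM, the median coefficient of variation was 3.92% in SFGM, 4.41% in GM, 7.68% in SFDM, 8.79% in DM, 10.9% in DMEM and 11.6% in SFB. The highest value was 32.8% in SFB and 25.9% in DMEM. DMEM was the group with the highest mean for 33 of the 49, DM for 7, SFGM for 6 and GM for 3. Over all 14637 genes tested these shares were 16.4%, 17.5%, 18.1% and 29.5%. SFDM was the group with the lowest mean for 30 members, GM for 10, DM for 5, SFGM for 2 and SFB for 2, and over all genes the shares were 17.98%, 23.4%, 24.2%, 10.4% and 11.2%. Most of these groups chose the members, so nothing is read from the difference.

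Measured against the starting cells in SFGM, members differed in their ratios of DMEM to SFGM and of SFDM to SFGM. SFGM was taken at 0 h only, so medium and time in culture cannot be told apart in either ratio. The origin of the difference between the media was therefore not tested. The groups below are 2-fold cuts through a continuous range. In 21 members the DMEM level was at least 2 times that in SFGM and the SFDM level above 0.5 times it (raised in DMEM). In 21 others the SFDM level was at most 0.5 times that in SFGM and the DMEM level below 2 times it (lowered in SFDM), and 7 members met both limits. A gene that differs 4-fold between the media must meet at least one of these limits, so the absence of a remainder is no result. The members raised in DMEM had a median ratio of DMEM to SFGM of 4.84 and of SFDM to SFGM of 0.746. In those lowered in SFDM the median ratios were 1.26 and 0.202, and in the 7 that met both they were 2.34 and 0.464. The members raised in DMEM were low at the start, with a median of 2.74 CPM in SFGM, and those lowered in SFDM were higher, with 41.1 CPM. SFGM defines these groups, so a difference in its level between them is in part built in.

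**Figure D2:**
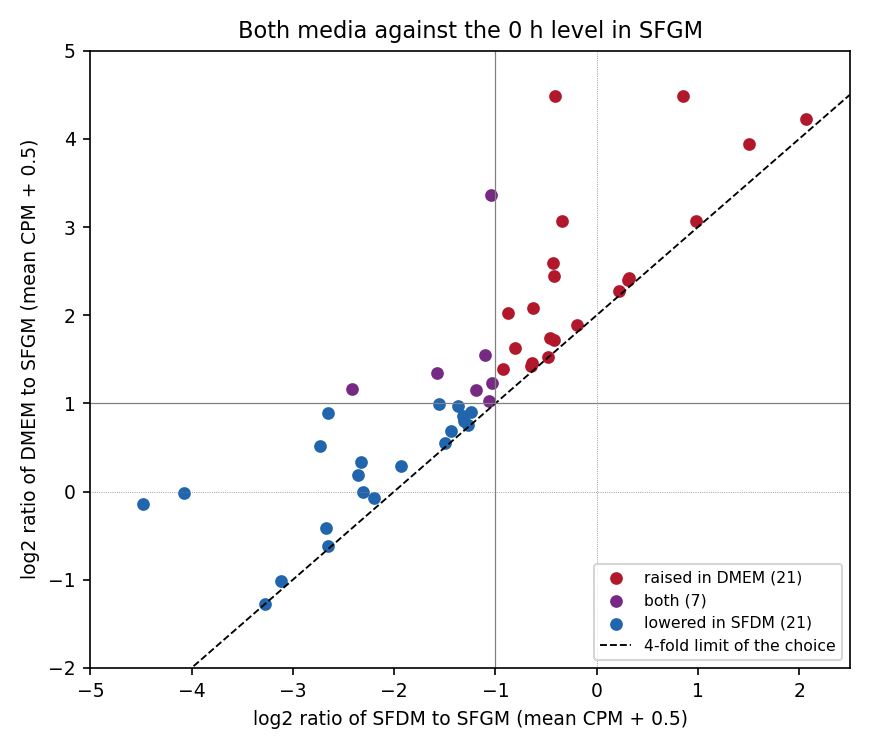
Each of the 49 members by its log2 ratio of SFDM to SFGM (horizontal) and of DMEM to SFGM (vertical), from mean CPM plus 0.5; the dashed line is the 4-fold limit that chose the genes, and the grey lines mark 2-fold lower in SFDM and 2-fold higher in DMEM. The points form a continuous band along the limit from members lowered in SFDM to members raised in DMEM.

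By edgeR calls, given as a description, 40 of the 49 members were higher in DMEM than in SFGM and 4 lower, beside 32.1% and 31.3% of all genes tested. In SFDM 37 were lower than in SFGM and 6 higher, beside 33.5% and 28.0%. Calls were made with the quasi-likelihood test of edgeR, at a Benjamini-Hochberg adjusted p of 0.05 over all 14637 genes. The DMEM and SFDM libraries chose the members, which favours these directions, and the 2 comparisons share the SFGM libraries. Among the 21 members raised in DMEM, 9 were also called lower in SFDM than in SFGM and 6 higher. Among the 21 lowered in SFDM, 12 were also higher in DMEM than in SFGM, 4 were lower and 5 were not called.

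ENSBTAG00000052665 had the largest ratio of DMEM to SFGM. Its level in DMEM was 26.4, 28.8 and 32.8 CPM in replicates A, B and C, against 0.868, 0.839 and 0.790 CPM in SFGM. In SFDM it was 0.309, 0.466 and 0.739 CPM, and in SFB 0.256, 0.366 and 0.665 CPM. The DMEM libraries stood far above all other libraries, and those of SFDM and SFB overlapped. The cells grown with serum also had the transcript, at 6.43, 5.87 and 6.14 CPM in GM and 8.26, 8.05 and 5.79 CPM in DM, with overlapping ranges. On x, DMEM was 22.4 times SFGM, 29.7 times SFDM and 3.79 times DM. The log2 fold change of SFGM against GM was -2.91 ± 0.22 (SE), with no overlap between libraries. That of SFB against SFGM was -0.81 ± 0.32 (SE), and it ran from -0.56 without SFB replicate A to -1.29 without SFB replicate C. The gene was named for a ratio that a low SFGM level favours, so no p is given for either.

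ENSBTAG00000027420 was near absent outside DMEM. Its level in DMEM was 13.6, 16.2 and 17.2 CPM. In SFDM it was 0.990, 0.860 and 0.555 CPM, and in SFGM 0.455, 0.175 and 0.0395 CPM. The SFDM libraries lay above those of SFGM and far below those of DMEM. SFB had 0.128, 0.570 and 0.196 CPM, DM 0.273, 0 and 0.383 CPM, and the 3 GM libraries held 0, 2 and 1 counts. The DMEM mean on x was 12.4 times that of the next group, SFDM, which was the widest margin among the members. It passed the filter on low counts only through other media, so no fitted fold change between GM, SFGM and SFB is read here.

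ENSBTAG00000020261 had the smallest ratio of SFDM to SFGM. It stood at 170.1, 176 and 175 CPM in SFGM and at 7.42, 7.74 and 6.75 CPM in SFDM, while the DMEM libraries had 162, 159 and 152 CPM. SFDM was far below both, and DMEM was slightly below SFGM without overlap (0.910 times on x). That small difference was not called by edgeR, at a log2 fold change of -0.07 ± 0.09 (SE). SFB lay between, at 47.7, 47.6 and 65.3 CPM, and so did the serum media, with 59.4, 61.5 and 62.6 CPM in GM and 31.0, 31.2 and 34.2 CPM in DM. The log2 fold change of SFB against SFGM was -1.58 ± 0.10 (SE), and that of SFGM against GM was 1.47 ± 0.10 (SE), with no overlap between libraries in either. The SFDM mean was lower than the next lowest group, DM, by 4.18 times on x, the widest such margin among the members.

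ENSBTAG00000050877 had a like profile at a lower level. It stood at 75.9, 80.1 and 66.2 CPM in SFGM, at 62.1, 72.2 and 85.0 CPM in DMEM and at 3.65, 3.98 and 4.16 CPM in SFDM. The SFGM and DMEM libraries overlapped, and the SFDM libraries were below every other library. SFB had 27.6, 29.0 and 24.4 CPM, GM 23.3, 22.1 and 17.9 CPM, and DM 16.3, 17.6 and 13.4 CPM. The log2 fold change of SFB against SFGM was -1.34 ± 0.13 (SE), and that of SFGM against GM was 1.78 ± 0.13 (SE), with no overlap between libraries in either. This gene and ENSBTAG00000020261 were named for a ratio that a high SFGM level favours, and both fold changes share the SFGM libraries, so no p is given.

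**Figure D3:**
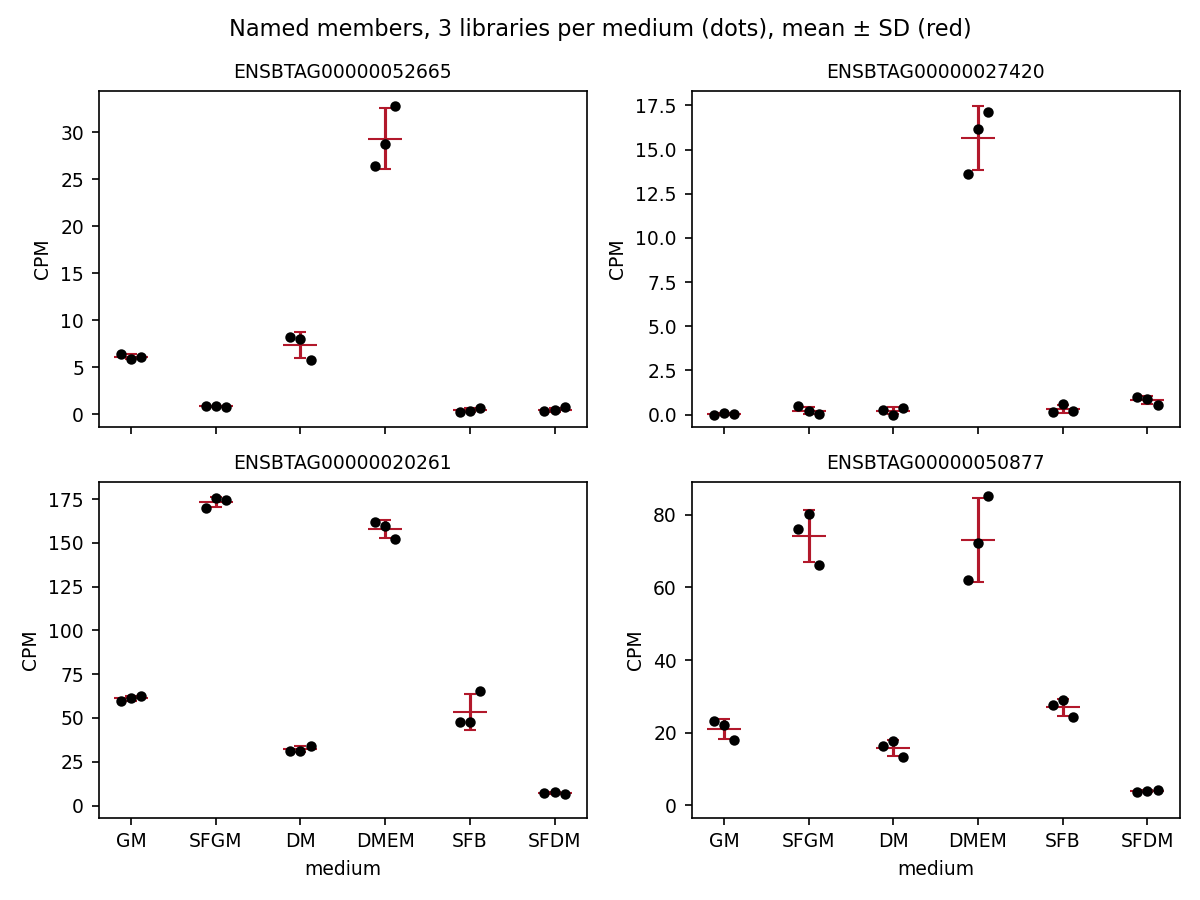
CPM of the 4 named members in each library (dots, replicates A, B and C from left to right), with the mean and SD of the 3 libraries of each medium in red; each panel has its own scale from 0. The upper pair peaks in DMEM, and the lower pair is high in SFGM and DMEM and lowest in SFDM.

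These 2 profiles were the extremes of the set. DMEM stood at least 2 times above every other group in 15 of the 49 members and at least 4 times above in 6. SFDM stood at most 0.5 times every other group in 6 members, all of them among those lowered in SFDM. For the median member, DMEM was 1.43 times the highest of the other 5 groups, and SFDM lay 1.22 times below the lowest of them. In most members, therefore, 1 or more other media stood above 0.5 times DMEM, and 1 or more below 2 times SFDM. These counts were made after the values were seen and have no test.

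SFB was the 72 h medium that took no part in the choice of members, and SFGM the 0 h medium that took none. Between them, 26 of the 49 members were lower in SFB (53.1%) and 13 higher (26.5%), while 10 were not called. Of all 14637 genes tested, 29.9% were lower and 28.6% higher, and of the 10802 genes that meet the members' limit on DMEM, 32.2% and 30.8%. The share of members lower in SFB was thus above both backgrounds, and the share higher was near them. Neither background was limited to genes lower in SFDM than in DMEM, as the members are by choice. SFB lay nearer to SFDM in 79.7% of the 764 genes at least 2-fold higher in DMEM than in SFDM. The choice can thus favour falls in SFB, and nothing is read from the excess. The 26 had log2 fold changes of -0.29 to -3.04, with a median of -1.20, and 14 of them fell by at least 2-fold. Of the 13, 5 rose by at least 2-fold, among them a member with 1 count over the SFGM libraries. The median over all 49 was -0.35, against -0.02 over all genes tested. No SFGM library was taken at 72 h, so SFB and the time in culture cannot be told apart.

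All 49 members passed the filter on low counts, and 47 would have passed it on the SFB and SFGM libraries alone. The other 2, ENSBTAG00000027420 and 1 more, passed through other media. The second of these is among the 13 called higher in SFB. It had 1 count over the SFGM libraries and none over those of GM, so its fitted fold change is not given. None of the 26 lower members was of this kind. With libraries scaled by their totals alone, 27 members were lower in SFB and 10 higher, and the higher share of calls over all genes went from 48.9% to 38.3%, with a shift of their median by -0.12 on the log2 scale.

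The direction in SFB went with how a member compared with SFGM. Of the 21 lowered in SFDM, 17 also fell in SFB and 2 rose, at a median log2 fold change of -1.11. Of the 21 raised in DMEM, 11 were higher in SFB, the member with 1 count in SFGM among them, and 3 lower (median 0.44). Of the 7 that met both limits, 6 were lower in SFB and none was higher. SFGM defined these groups and is the base of this comparison, which favours such a pattern, so it is given as a description.

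**Figure D4:**
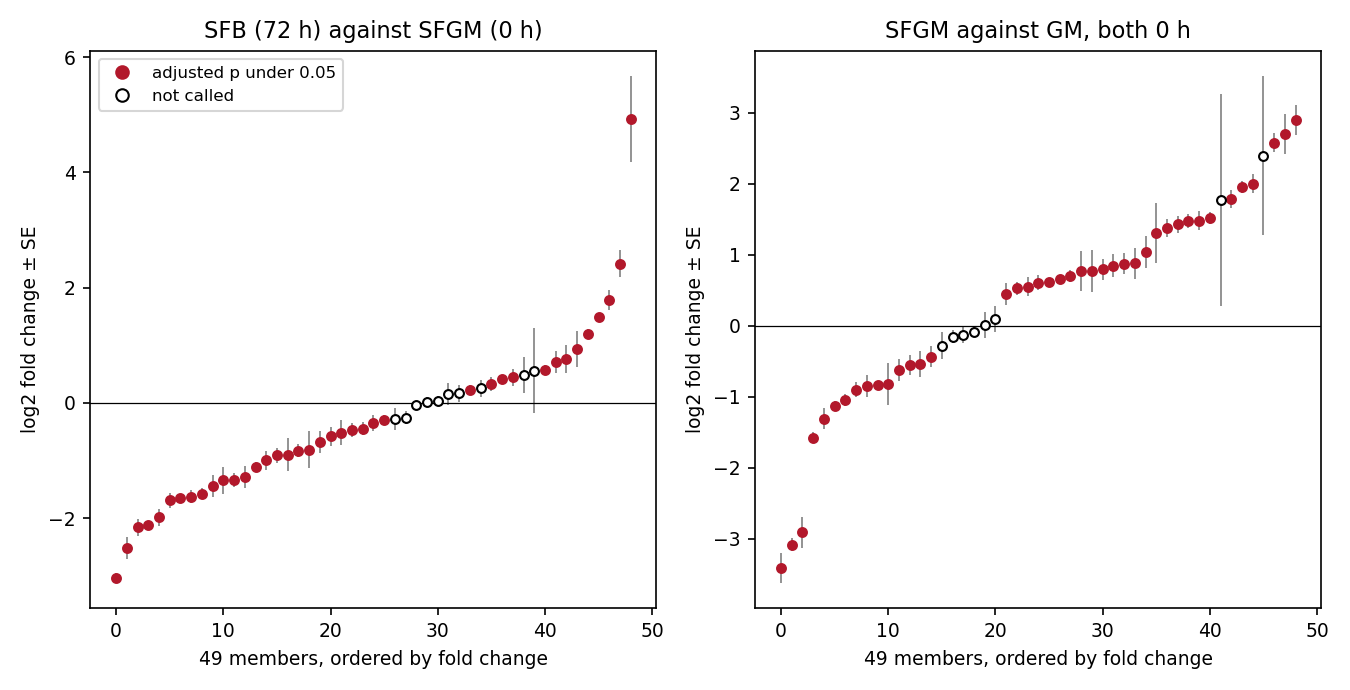
Log2 fold change with its standard error for the 49 members, each panel ordered by its own values, for SFB at 72 h against SFGM at 0 h (left) and for SFGM against GM, both at 0 h (right); red points passed the edgeR test. More members lie below 0 than above on the left (26 and 13 called), and more above than below on the right (26 and 15 called); the highest point on the left is a member with 1 count in SFGM.

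Before differentiation the members already differed between the growth media. In SFGM 26 of the 49 were higher than in GM (53.1%) and 15 lower (30.6%), and 8 were not called. Over all genes tested 19.6% were higher and 19.4% lower, and over genes that meet the members' limit on DMEM 20.7% and 20.8%. The median log2 fold change was 0.60, against -0.01 over all genes tested. The called changes ran from 0.45 to 2.89 upwards and from -0.44 to -3.41 downwards. GM entered the choice of members through its ratio to DM, so these counts are a description and nothing is read from the background. Of the 26 that were higher in SFGM than in GM, 16 were then lower in SFB than in SFGM, 8 were higher and 2 were not called. Of the 15 that were lower in SFGM, 6 were lower again in SFB, 3 were higher and 6 were not called. The SFGM libraries enter both comparisons with opposite sign, so these joint counts are a description.

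At 72 h the SFB level of most members lay between those of SFDM and DMEM, and nearer to SFDM. The SFB mean was between the 2 in 41 members, below SFDM in 7 and above DMEM in 1. On the log2 scale of x it was nearer to SFDM in 38 (77.6%) and nearer to DMEM in 11. The background was 52.5% over all genes tested and 79.7% over the 764 genes at least 2-fold higher in DMEM than in SFDM, which the members' share did not exceed. On a scale with 0 at the SFDM mean and 1 at the DMEM mean, SFB had a median position of 0.28. Of the 11 members nearer to DMEM, 8 were among those lowered in SFDM, including ENSBTAG00000020261 (0.64) and ENSBTAG00000050877 (0.65), and 3 among those raised in DMEM. ENSBTAG00000052665 (-0.02) and ENSBTAG00000027420 (-0.19) stood at or below the SFDM end.

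By edgeR calls, 48 members were higher in DMEM than in SFB and none lower, beside 20.8% and 20.1% of all genes. SFDM was lower than SFB in 34 members and higher in 3, beside 20.0% and 14.8%. The 3 that were higher in SFDM than in SFB were all among those raised in DMEM. The DMEM and SFDM libraries chose the members, so these counts are largely fixed by the choice and nothing is read from them.

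**Figure D5:**
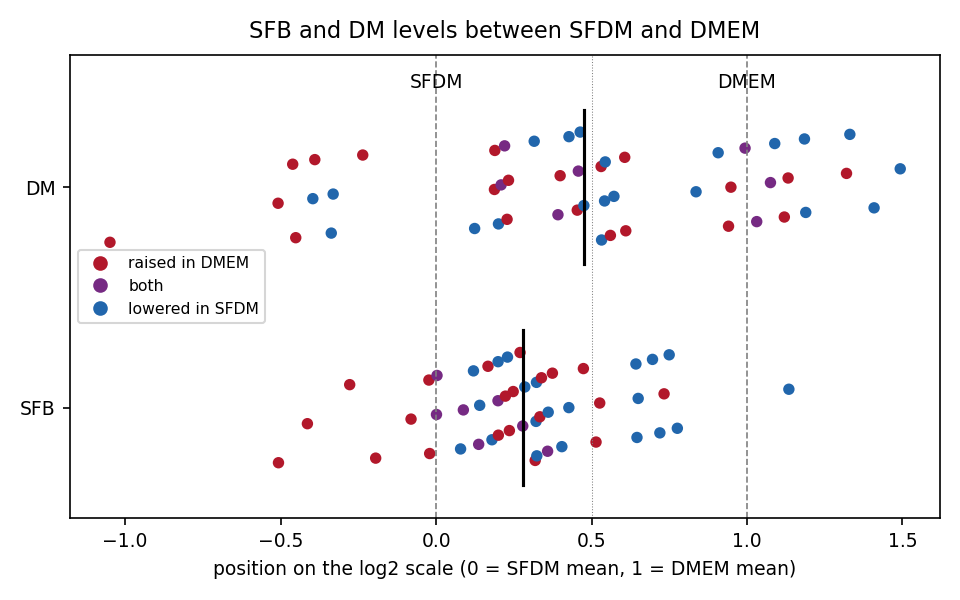
Position of the SFB and DM means of each member on the log2 scale of x between its SFDM mean (0) and its DMEM mean (1), with the median as a black bar; the vertical scatter has no meaning. SFB points cluster near the SFDM end, with a median of 0.28, and DM points spread from below SFDM to above DMEM, with a median of 0.48.

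Cells differentiated with serum showed no common level. The DM mean lay between SFDM and DMEM in 29 members, above DMEM in 11 and below SFDM in 9, and its median position was 0.48. By edgeR calls, DMEM was higher than DM in 35 members and lower in 8, beside 25.0% and 24.5% of all genes. SFDM was lower than DM in 37 members and higher in 9, beside 23.7% and 21.7%. All 3 media in these counts took part in the choice of members, DM through its ratio to GM, so nothing is read from the background. The 9 members with DM below SFDM were 6 raised in DMEM and 3 lowered in SFDM. In these the serum differentiation medium DM had a lower mean level of the transcript than either serum-free differentiation medium. In the 11 with DM above DMEM, the level in DMEM was not the highest of the series, although it was at least 4 times that in SFDM.

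Members did not follow a single profile over the media that the contrast of DMEM and SFDM left out. Over the 12 libraries of GM, SFGM, DM and SFB, the median pairwise Pearson's r of log2(CPM + 0.5) was 0.16 between members raised in DMEM (210 pairs) and 0.33 between members lowered in SFDM (210 pairs). Between the 2 groups it was -0.13 (441 pairs). All pairs share the same libraries, and the groups were defined with SFGM, so these values are a description. No r over other genes is given beside them. Noise in members near the count floor in these media, such as ENSBTAG00000027420, can bring r closer to none.

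The 34 genes with the same DMEM to SFDM difference but a larger GM to DM change gave other counts in SFB against SFGM. Of these, 8 were lower in SFB than in SFGM and 20 higher, with a median log2 fold change of 0.57. The 49 members had 26, 13 and -0.35. Of the 34, 32 were set apart by a ratio of DM to GM above 3, a rise from 0 h to 72 h. SFB against SFGM also sets 72 h against 0 h, so rises in it are favoured for the 34 and nothing is read from them. In SFGM against GM 18 of the 34 were higher and 1 lower, where 26 and 15 of the members were. SFB was nearer to SFDM than to DMEM in 33 of the 34. The mirror choice, genes higher in SFDM than in DMEM by the same limits, took 15 genes, of which 13 were higher in SFB than in SFGM and 1 lower. The differences between these sets were not tested, and nothing here is called particular to the 49.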

How the data were processed

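The values deposited by the authors are raw counts per Ensembl bovine gene identifier, 1 column per library (18 in all). Processing notes of the submitters name the tools STAR 2.7 and featureCounts and the assembly bosTau9. Strand setting and annotation release were not given in the sources used here, so reads of overlapping or near-identical genes could be split in ways the counts do not show.

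CPM values here divide by column totals. Tests used edgeR 4.0.16 in R 4.3.3: filterByExpr (minimum count 10, minimum total 15; 14637 genes kept), TMM scaling (factors 0.951 to 1.06), a quasi-likelihood model with a mean for each of the 6 groups over all 18 libraries, two-sided contrasts, and Benjamini-Hochberg adjustment over all genes at 0.05. Standard errors were derived from the fold change and its F statistic. The script was tested on simulated data. Alternatives were RLE scaling, scaling by totals, no or a stricter filter (1 CPM in 3 libraries), DESeq2 1.42.0, only the compared groups, a block for the letter of the replicate, and a fit without each library in turn.

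The members, groups and comparisons were chosen with earlier results of these data known. Named identifiers are the 2 members with the largest ratio of DMEM to SFGM and the 2 with the smallest ratio of SFDM to SFGM on x, with no overlap with the SFGM libraries. No identifier (0) matched the ARS-UCD2.0 gene table, so 19 lists of gene symbols and 8 lists of cell type markers were not used here. Libraries of 16162525 to 28589018 counts put 3 counts over a group at 0.0364 to 0.0457 CPM, for counting error only. Replicate pairs differed beyond sampling noise (chi-square per degree of freedom 1.85 to 41.9) and were counted separately. In every medium replicates A and B were the closest pair. This was clearest in SFB, at 2.68 for A and B against 40.4 for A and C and 41.6 for B and C. The cause was not tested. The labels do not say whether letters mark animals or cultures, and p-values therefore reflect only how these libraries vary, which may be technical.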

Additional observations from a re-analysis of the deposited data

How the results depend on the processing

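The number of members was set by the fold limit: 114 genes at 3-fold and 16 at 6-fold, against 49 as reported. TMM-scaled totals gave 42, all among the 49, and adding 1 in place of 0.5 gave 41, of which 36 were among the 49. Without a library of GM, DM, DMEM or SFDM there were 45 to 50, with as few as 41 of the 49 kept (without DMEM replicate A or SFDM replicate C). The 10 counts of called members given here were recomputed and stayed within 1.5 times their reported values under the alternatives that were run; the smaller opposite counts and the counts by class were not recomputed. Members lower in SFB than in SFGM numbered 21 to 27 over the alternatives and 22 to 26 without 1 library, and members higher 10 to 13 and 10 to 11. Members higher in SFGM than in GM numbered 25 to 26 and 23 to 26, and members lower 15 to 16 and 12 to 14. In the comparisons with DMEM or SFDM, leaving out a library gave 39 to 41 members higher in DMEM than SFGM, 36 to 39 lower in SFDM than SFGM, 47 to 48 higher in DMEM than SFB, 31 to 33 lower in SFDM than SFB, 35 higher in DMEM than DM and 37 lower in SFDM than DM. Over the other alternatives these were 40 to 41, 36 to 39, 47 to 48, 27 to 35, 35 and 36 to 38, the 27 coming from a fit of SFDM and SFB alone (34 as reported). Scaling by totals alone moved the median of all genes by -0.14 log2 units in SFDM against SFGM, and the share of its calls that were higher from 45.5% to 35.5%.

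Same-lettered replicates did not deviate together in every pair of any comparison made here (all correlations above 0.1 were required), so the letters were not taken to pair the libraries. In SFB against SFGM the correlations were 0.0934, 0.186 and 0.336, and in SFGM against GM 0.0746, 0.104 and 0.225. With the letter as a replicate block, 24 members were lower and 13 higher in SFB than in SFGM, and 25 were higher and 15 lower in SFGM than in GM. Of the 6 libraries in each of these comparisons, 5 and 4 correlated best with their own letter, and in DMEM against SFDM 5 did. In the comparisons of DMEM or SFDM with SFGM, SFB or DM, 0 of 6 did, at correlations of -0.59 to 0.0020. The letters thus gave at most a hint, from the data and not the design, which did not hold in all comparisons.

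For single identifiers, the fitted log2 fold change of ENSBTAG00000027420 in SFB against SFGM, not used in the results because the gene fails the low-count filter on those libraries, went from 0.56 to -0.30 without SFB replicate B. The cause was not tested. ENSBTAG00000052665 is among the members called lower in SFB than in SFGM. It was not called in a fit of those groups alone or with the replicate block. Nor was it called without SFB replicate A or B, or without any 1 of the SFGM libraries. Members below about 1 CPM in both groups compared, this gene among them, are limited by depth.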
